A study of Mus musculus with 26 samples.

Results

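The 9 genes described here mark or equip Sertoli cells, the somatic cells of the seminiferous tubule. They are Sox9, Wt1, Gata4, Gata1, Fshr, Inha, Amh, Cldn11 and Clu, a list fixed by name, and all 9 had a value among the 21275 genes of the testis table. The series holds 26 mouse RNA-seq samples on Tex10, and 4 of them are whole testis: 2 libraries labelled wildtype (WT) and 2 labelled Tex10 conditional knockout (cKO). All 4 testis samples carry the strain label C57BL/6N and were untreated. The Cre driver, the cells in which Tex10 was deleted and the age of the mice are not given in the sources used here, and nothing in the labels says how many animals stand behind a library. The remaining libraries are cultured cells and were not used here.

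Sertoli cells surround the germ cells from spermatogonia to elongated spermatids and supply their niche. Sox9, Wt1 and Gata4 encode transcription factors that set and keep Sertoli cell identity. The cells respond to follicle-stimulating hormone through the receptor Fshr, secrete inhibin, of which Inha is the alpha subunit, and in immature testis secrete anti-Müllerian hormone (Amh). Tight junctions between neighbouring Sertoli cells, built in part from claudin 11 (Cldn11), form the blood-testis barrier. Because these are RNA levels of a whole organ, more Sertoli cells per testis cell and more RNA of a gene per Sertoli cell cannot be told apart.

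Values are TMM-scaled CPM, that is, reads relative to the library's size after a scaling (the trimmed mean of M values) that sets most genes level between libraries. The 4 libraries held between 6058987 and 7272313 reads in the table. A read was worth between 0.127 and 0.171 units, so 3 reads corresponded to at most 0.514. A log2 fold change here is a difference of log2(value + 1), which understates the change of low genes. Every adjusted p from limma was taken over the 20658 genes with a mean of at least 1 (Benjamini-Hochberg), and called means an adjusted p under 0.05. With 2 libraries a group, p-values measure only the spread between these samples. Tex10 itself was at 79.1 and 44.1 in WT and at 29.8 and 27.3 in cKO, a log2 fold change of -1.02 (standard error 0.214, limma adjusted p 0.00318), which checks the labels. Part of its exons overlaps Invs on the other strand, and the counting is not stated to use strand. WT testis 1 had by far the highest Tex10 value, and without that library the log2 fold change was -0.61.

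All 9 genes were higher in cKO than in WT testis, and for each of them both cKO libraries lay above both WT libraries. Each of the 9 was called in limma, at log2 fold changes from 1.20 for Gata4 to 1.80 for Fshr, with a median of 1.61. Over all genes tested 29.1% were called, 16.1% higher and 13.1% lower, the median log2 fold change was 0.01, and in 34.8% of genes both cKO libraries lay above both WT libraries and in 31.5% below. On recovered reads edgeR and DESeq2 also called 9 of the 9 higher; edgeR called 28.6% of all genes (15.8% higher) and DESeq2 21.1% (10.3% higher). Summed, the 9 genes took 0.0542% of reads in WT testis 1 and 0.0469% in WT testis 2 (95% Wilson intervals 0.0524% to 0.0561% and 0.0453% to 0.0486%). In cKO they took 0.185% and 0.158% (95% Wilson intervals 0.181% to 0.188% and 0.155% to 0.161%). Intervals from reads cover counting error only. With library-total scaling in place of TMM, chosen after seeing the data, the median of all genes moved up by 0.16 and 76.9% of called genes were higher, against 55.1% on the deposited scale. The 9 genes were called higher on either scale.

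**Figure D1:**
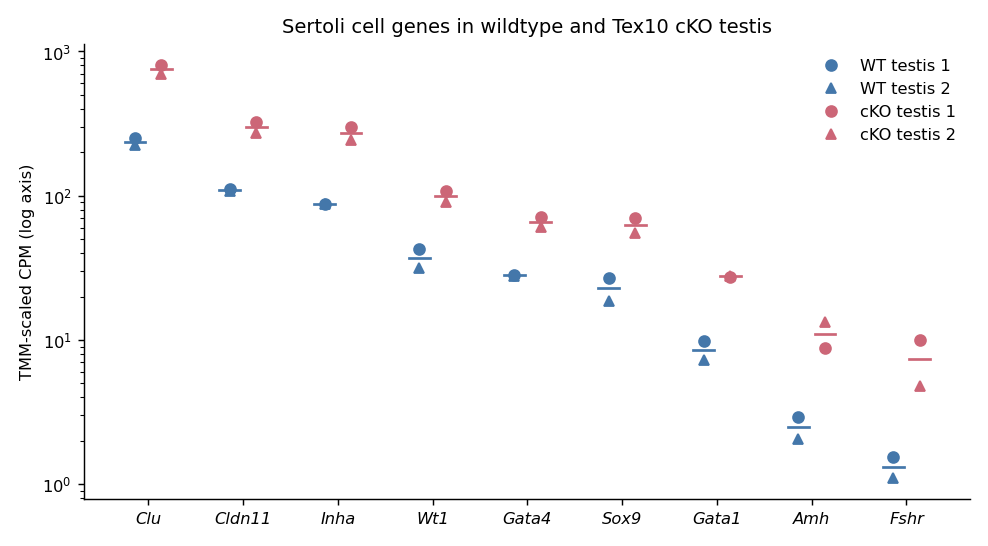
Value of each Sertoli cell gene in each library, in TMM-scaled CPM on a log axis, for WT (blue) and cKO (red) testis, with circles for replicate 1, triangles for replicate 2 and bars for the group means (n = 2). In each of the 9 genes both cKO libraries lie above both WT libraries, from Clu at 693.8 and above in cKO to Fshr at 1.54 and below in WT.

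Sox9 is the transcription factor that starts Sertoli cell differentiation and stays on in the adult cell. The gene lies on chromosome 11, from 112782224 to 112787760 (GRCm38, the mm10 build, annotation GENCODE M21). Sox9 stood at 26.9 and 18.7 in WT testis 1 and 2, and at 69.6 and 55.0 in cKO testis 1 and 2. Replicate 1 was the higher of the pair in both groups and the groups did not overlap. The log2 fold change was 1.43 (standard error 0.187, 95% interval 1.02 to 1.83, limma adjusted p 0.000183).

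Wt1, on chromosome 2 from 105126529 to 105173616, encodes the zinc finger factor that is needed to keep Sertoli cell identity. Its values were 42.8 and 31.4 in WT and 107 and 90.7 in cKO. The order of the 4 libraries was the same as for Sox9. cKO exceeded WT by a log2 fold change of 1.40 (standard error 0.161, 95% interval 1.06 to 1.75, limma adjusted p 8.7e-05). Within a library the ratio of Sox9 to Wt1, which does not depend on scaling, was 0.628 and 0.595 in WT and 0.650 and 0.606 in cKO. The 2 factors thus kept nearly the same ratio in all 4 libraries, with a gap between groups no larger than that between libraries of a group.

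Gata4, on chromosome 14 from 63198922 to 63271692, encodes a GATA factor of Sertoli cells that Leydig cells also use. It was at 28.4 and 27.6 in WT and at 71.0 and 60.9 in cKO. The WT libraries were close together and both cKO libraries were well above them. The log2 fold change of 1.20 (standard error 0.148, 95% interval 0.88 to 1.52, limma adjusted p 0.000129) was the smallest of the 9. The ratio of Gata4 to Wt1 was 0.664 and 0.880 in WT and 0.663 and 0.671 in cKO, so WT testis 2 stood apart from the other 3 libraries.

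Gata1, on chromosome X from 7959260 to 7978071, encodes a GATA factor best known from red cell precursors that Sertoli cells of some tubule stages also make. Its values were 9.76 and 7.22 in WT and 27.3 and 28.0 in cKO. The cKO libraries nearly coincided, with cKO testis 2 slightly above cKO testis 1, unlike Sox9, Wt1 and Gata4. The log2 fold change was 1.61 (standard error 0.215, 95% interval 1.14 to 2.07, limma adjusted p 0.000207). Markers of red cell precursors were read beside it: 4 of 8 listed genes had a value, none of the 4 was called by limma (0 at an unadjusted p under 0.05), and they summed to between 14.6 and 15.4 in WT and between 17.0 and 19.6 in cKO. Of these, Alas2, the first enzyme of heme synthesis in red cells, was at 6.16 and 8.79 in WT and 10.4 and 6.73 in cKO. The beta-globin gene Hbb-bs was at 5.31 and 2.98 in WT and 2.79 and 9.40 in cKO, so the groups overlapped for both genes.

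Fshr, on chromosome 17 from 88984952 to 89200675, encodes the receptor for follicle-stimulating hormone and had the lowest level of the 9 per exon length. It was at 1.54 and 1.10 in WT, from 9 and 7 reads, and at 10.03 and 4.83 in cKO, from 72 and 38 reads. The cKO libraries differed by a factor of 2.08, the widest gap between cKO libraries among the 9, and the groups did not overlap. cKO exceeded WT by a log2 fold change of 1.80 (standard error 0.366, 95% interval 1.01 to 2.58, limma adjusted p 0.00278). Without cKO testis 1 it was 1.34 and no longer called (limma adjusted p 0.0533). With a pseudocount of 0.1 in place of 1 it was 2.33, and the edgeR test on recovered reads gave 2.48 (edgeR adjusted p 0.00271).

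Inha, on chromosome 1 from 75507077 to 75510366, encodes the alpha subunit of inhibin, the hormone by which Sertoli cells restrain the release of follicle-stimulating hormone. It was at 87.32 and 87.27 in WT and at 298 and 243 in cKO. The WT libraries agreed more closely than for any other of the 9 genes, and both cKO libraries were far above them. The log2 fold change was 1.61 (standard error 0.127, 95% interval 1.34 to 1.89, limma adjusted p 1.48e-05).

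Amh, on chromosome 10 from 80805243 to 80807648, encodes the hormone that makes the Müllerian duct regress and is low in adult Sertoli cells. Its values were 2.91 and 2.04 in WT, from 17 and 13 reads, and 8.78 and 13.3 in cKO, from 63 and 105 reads. Here cKO testis 2 was the higher library, the reverse of the order seen for Fshr, Sox9, Wt1, Gata4, Inha, Cldn11 and Clu. cKO exceeded WT by a log2 fold change of 1.78 (standard error 0.314, 95% interval 1.11 to 2.45, limma adjusted p 0.00114), and 2.11 with a pseudocount of 0.1. Other genes linked to immature Sertoli cells had a value in 3 of 4 cases and were not called higher. The intermediate filament gene Krt8 was at 1.71 and 3.14 in WT and 1.95 and 4.32 in cKO. Hsd17b1, a steroid dehydrogenase gene named after its values were seen, was at 0.86 and 0.94 in WT and 1.25 and 2.54 in cKO, without overlap but not called (log2 fold change 0.57, limma adjusted p 0.271). The adhesion gene Ncam1 fell, from 39.5 and 35.5 to 19.1 and 18.4 (log2 fold change -0.96, limma adjusted p 0.00105).

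Cldn11, on chromosome 3 from 31149920 to 31164324, encodes the main claudin of the Sertoli cell barrier. It was at 111 and 108 in WT and at 324 and 271 in cKO. The 2 WT libraries were nearly level and the groups were far apart. The log2 fold change was 1.42 (standard error 0.123, 95% interval 1.16 to 1.69, limma adjusted p 2.27e-05).

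Clu, on chromosome 14 from 65968483 to 65981547, encodes clusterin, a secreted chaperone and a major product of Sertoli cells. It was at 252 and 224 in WT and at 810 and 694 in cKO. It was the most abundant of the 9 in every library, also per exon length. cKO exceeded WT by a log2 fold change of 1.66 (standard error 0.124, 95% interval 1.39 to 1.92, limma adjusted p 1.17e-05). No exon of the 9 genes overlapped an exon of another gene in GENCODE M21. Ranked by mean value per kilobase of exon, the 9 genes had the same order in WT as in cKO: Clu, Inha, Cldn11, Gata4, Wt1, Sox9, Gata1, Amh, Fshr. The first 3 lay close together in WT, at 69.1, 59.2 and 58.8 per kilobase, and so did Gata4, Wt1 and Sox9, at 7.18, 5.99 and 5.51 per kilobase. Neighbours within each of these groups of 3 did not differ beyond the spread between libraries in every case: in WT testis 1 Cldn11 was above Inha per kilobase and in WT testis 2 below it.

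Promoter windows, 250 bases before to 50 after a gene's start, were in the RefSeq sequence table (build GRCm38.p6) for 4 of the 9 genes. The windows of Fshr and Cldn11 lie at the outer start of the annotated gene and are shown to set the scarcest of the 9 genes beside an abundant one: both rose in cKO, and the windows differ in G and C content, 40.7% for Fshr and 66.3% for Cldn11. Those of Inha and Gata1 belong to a start inside the annotated gene and are not shown. Capitals mark matches, on either strand, to the E box CACGTG, the nuclear receptor element AGGTCA, the SOX-like letters ACAATG, the 4 GATA forms (AGATAA or else AGATAG or else TGATAA or else TGATAG) and the form GATAAG, whose matches can share bases with AGATAA and with TGATAA. The minus strand window of Fshr is chr17:89200626-89200925 and the plus strand window of Cldn11 is chr3:31149670-31149969, both printed 5′ to 3′.
Fshr: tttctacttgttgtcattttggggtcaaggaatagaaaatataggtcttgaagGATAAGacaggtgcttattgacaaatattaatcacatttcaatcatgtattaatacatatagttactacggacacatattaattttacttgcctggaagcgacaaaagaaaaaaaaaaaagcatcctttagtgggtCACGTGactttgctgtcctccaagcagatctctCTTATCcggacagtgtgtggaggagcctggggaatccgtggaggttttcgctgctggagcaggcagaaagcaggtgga
Cldn11: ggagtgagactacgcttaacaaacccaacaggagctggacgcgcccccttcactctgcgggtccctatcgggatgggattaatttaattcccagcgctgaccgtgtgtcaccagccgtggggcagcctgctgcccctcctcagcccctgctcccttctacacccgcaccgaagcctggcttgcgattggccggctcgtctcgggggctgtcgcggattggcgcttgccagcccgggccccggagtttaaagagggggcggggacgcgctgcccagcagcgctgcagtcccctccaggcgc
In Fshr the letters GATAAG began at position -197 relative to the start, CACGTG at -61 and CTTATC, the reverse complement of GATAAG, at -28. Of 32851 windows of that length, 7.15% held CACGTG and 7.44% held GATAAG on either strand. AGGTCA was in 16.3% of all windows, ACAATG in 12.6% and any of the 4 GATA forms in 29.8%, and none of these was in the Fshr or Cldn11 window. A match is a description of the sequence and not a measured site.

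The next comparison asked whether the 9 genes rose by the same amount. The 9 log2 fold changes spanned 0.59, and the 95% intervals of 8 of the 9 held the members' median of 1.61. The exception was Gata4, whose interval ended at 1.52. That median is the value of Gata1 itself, and the intervals can include shifts between libraries that the genes share. This count therefore cannot decide whether the changes were equal. Each gene was then compared with the mean of the other 8 within each library, in a fit over all genes. None of the 9 was called (0 at an unadjusted p under 0.05 as well), and limma adjusted p ran from 0.132 to 0.809. In those 9 fits between 0.0532% and 0.0871% of all genes were called higher and between 87.2% and 89.8% lower. Gata4 was lowest, at -0.39 relative to the others (95% interval -0.88 to 0.10, limma adjusted p 0.132). Fshr was highest, at 0.28 (95% interval -0.42 to 0.99, limma adjusted p 0.446), followed by Amh at 0.26 (95% interval -0.42 to 0.95, limma adjusted p 0.463). The intervals are wide, so differences within them between genes were not detectable in these fits at n = 2, which does not show that the changes were equal. In limma part of each variance comes from all genes, and subtracting a reference adds its shifts between libraries to every gene. The standard error of Clu was 0.298 against the other 8 and 0.124 in the first fit. The width is therefore not the spread of these 9 genes alone. With read counts in place of log2(value + 1) the 2 scarce genes moved further from the rest: edgeR on recovered reads gave 2.48 for Fshr and 2.16 for Amh, and values from 1.24 to 1.71 for the other 7. The ratio of Fshr to Wt1 within a library was 0.036 and 0.035 in WT and 0.0936 and 0.0532 in cKO, and that of Amh to Wt1 was 0.068 and 0.065 in WT and 0.0819 and 0.147 in cKO. For both ratios the cKO libraries lay above the WT libraries but also far from each other.

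The authors' deposited table gave the same direction for all 9 genes. Its log2 fold changes ran from 1.23 for Gata4 to 2.48 for Fshr in the authors' deposited table, with Amh at 2.16 and Gata1 at 1.71. The highest FDR there was 4.59e-05, for Fshr, and 17.1% of its genes were higher at an FDR under 0.05.

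A wider list of 40 Sertoli genes was read beside the 9, and 39 of them could be tested. In cKO 30 were called higher and 1 lower, and 8 were not called, with a median log2 fold change of 1.11. Of the 39, 15 had log2 fold changes within the range of the 9 genes, 2 above it and 22 below it. All 8 transcription factor genes rose, from 0.78 to 1.54 in log2 fold change. Nr5a1, the nuclear receptor of steroid-making and Sertoli cells, went from 37.7 and 36.6 to 119 and 101 (log2 fold change 1.54, limma adjusted p 2.58e-05). Nr0b1 (log2 fold change 1.27) and the homeobox gene Rhox5 (log2 fold change 1.51), which belongs to a family of similar genes, rose as well. Among hormone genes and receptors Amhr2, the receptor of Amh, rose from 62.5 and 57.0 to 173 and 157 (log2 fold change 1.45, limma adjusted p 2.27e-05). Inhbb, the inhibin beta B subunit that pairs with the Inha product, rose less, from 45.2 and 45.4 to 102 and 87.8 (log2 fold change 1.04, 95% interval 0.75 to 1.33, limma adjusted p 0.000169). That interval ends just below the lower bound of 1.34 for Inha. The difference between the 2 subunits was not tested.

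Of 10 genes for secretion, transport and clearance 9 rose. The protease gene Ctsl went from 108 and 106 to 386 and 335 (log2 fold change 1.74, limma adjusted p 1.13e-05). The cystatin gene Cst12 and the defensin gene Defb19 had the largest changes of the wider list (log2 fold changes 2.17 and 1.92), and Tyro3, a receptor used in clearing dying germ cells, rose by 1.37. Of 6 niche ligands 4 rose. Kitl, the ligand of the Kit receptor on spermatogonia, went from 20.7 and 17.7 to 80.4 and 50.3 (log2 fold change 1.68, limma adjusted p 0.000108), Cxcl12 rose by 1.44 and Dhh, a hedgehog ligand read by Leydig and myoid cells, by 0.90. Jag1, a Notch ligand named after its values were seen, lay the other way, at 21.23 and 21.19 in WT and 14.8 and 15.5 in cKO, and was not called (log2 fold change -0.46, limma adjusted p 0.0849). Aard, Tsx and Mro, genes of less well known function, rose by 1.45, 1.28 and 1.18.

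Junction and cytoskeleton genes were mixed: 4 of 9 were called higher, 1 lower and 4 were not called. The gap junction gene Gja1 rose from 59.2 and 65.3 to 179 and 137 (log2 fold change 1.32, limma adjusted p 6.56e-05) and the filament gene Vim by 1.48. Cldn3, a claudin found in the barrier as a new tight junction forms, fell from 144 and 147 to 90.0 and 120 (log2 fold change -0.48, limma adjusted p 0.0214), while Cldn11 rose. The Cldn3 call was lost in limma without cKO testis 1 (-0.27, adjusted p 0.333), with quantile normalization (-0.30, adjusted p 0.154), with library-total scaling (-0.29, adjusted p 0.146) and without the variance trend (adjusted p 0.16). Among the uncalled genes, named after their values were seen, were Tjp1 and Cldn5 at log2 fold changes of 0.07 and -0.05, and Cdh2 at -0.61. Tjp1 and Cdh2 are also expressed in many other cell types.

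**Figure D2:**
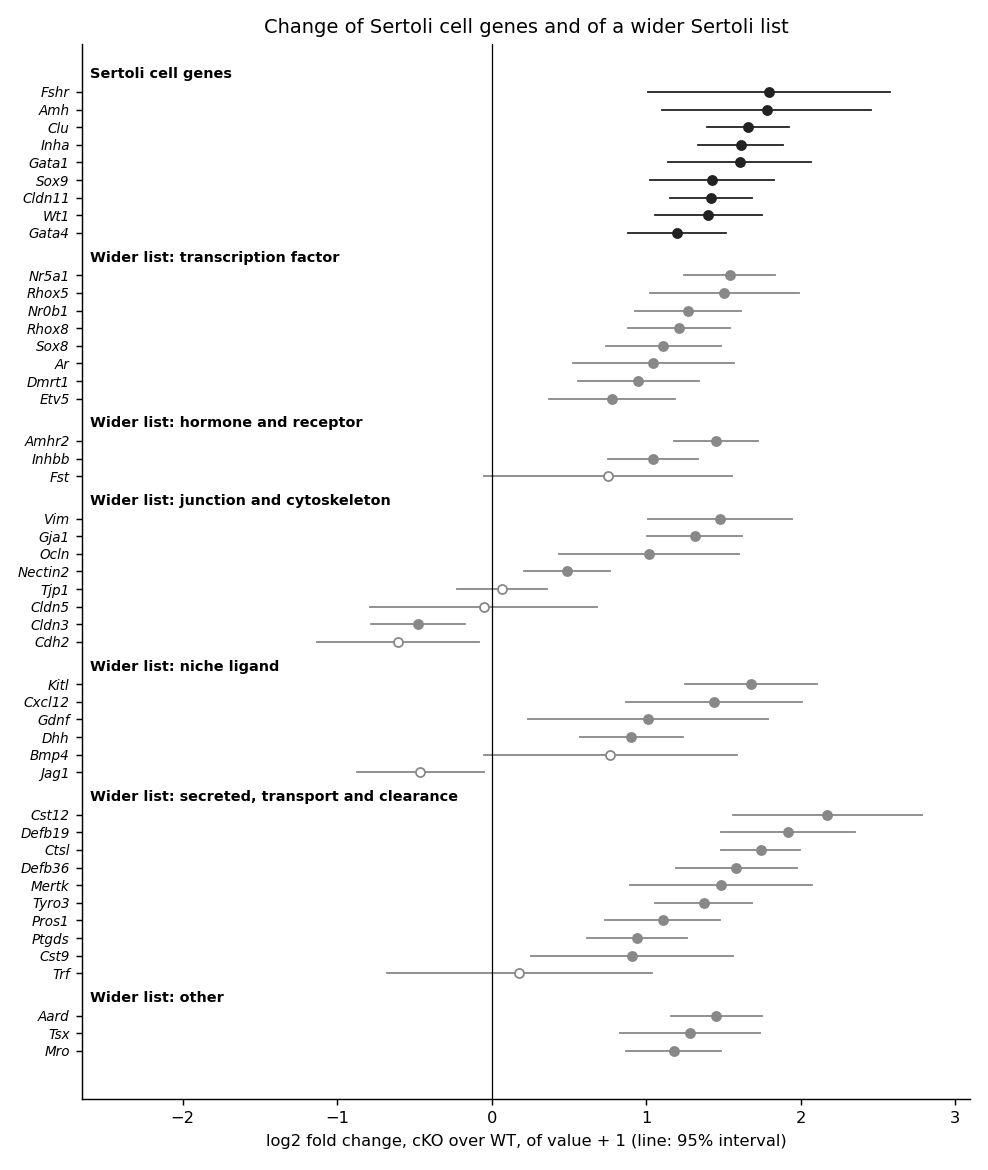
log2 fold change in cKO over WT testis on the log2(value + 1) scale, with 95% intervals from limma (n = 2 a group), for the 9 Sertoli cell genes (black) and genes of the wider list by role (grey); filled points were called. The 9 genes lie between 1.20 and 1.80, and the wider list reaches from -0.61 for Cdh2 to 2.17 for Cst12.

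Each library was also set to the mean of the wider list, so that a gene moving with that list would show no change. On this scale 5 of the 9 genes were called higher in cKO, where 67.7% of all genes were called, 0.866% higher and 66.9% lower. They were Amh (0.79, limma adjusted p 0.0321), Fshr (0.81, limma adjusted p 0.0452), Inha (0.62, limma adjusted p 0.029), Clu (0.67, limma adjusted p 0.0461) and Gata1 (0.62, limma adjusted p 0.0432). Sox9, Wt1, Cldn11 and Gata4 lay at 0.44, 0.42, 0.43 and 0.21 with limma adjusted p from 0.116 to 0.452. The adjustment did little on this scale: 14551 of all genes had an unadjusted p under 0.05 in limma and 13995 an adjusted p under 0.05. An adjusted p just under 0.05 is therefore close to an unadjusted one here. Standard errors on this scale also take in the shifts of the list mean between libraries. The 5 calls changed with the list and with single libraries. With the junction and cytoskeleton genes of the list left out, an alternative chosen after seeing the data, 0 of the 9 were called by limma (0 at an unadjusted p under 0.05). The count was also 0 without WT testis 1 (1 at an unadjusted p under 0.05) and 0 without WT testis 2 (0 at an unadjusted p under 0.05). It was 2 without cKO testis 1 and 1 without cKO testis 2, and it was 8 against the median of the list in place of its mean. Of all genes, 0.29% were called higher without the junction and cytoskeleton genes, 0.474% without WT testis 1, 0.445% without WT testis 2, 0.31% without cKO testis 1, 0.707% without cKO testis 2 and 1.34% against the median. Clu lay between 0.63 and 0.71 when any library was left out, close to its 0.67. Without the junction and cytoskeleton genes all 5 were smaller: Clu at 0.48, Amh at 0.60, Fshr at 0.62, Inha at 0.43 and Gata1 at 0.43. Amh was at 1.22 without cKO testis 1 and at 0.37 without cKO testis 2. Fshr was at 0.50 without cKO testis 1 and at 1.12 without cKO testis 2. Gata1 was at 0.79 without cKO testis 1 and at 0.45 without cKO testis 2, and Inha at 0.63 and 0.62. Without WT testis 1 Amh was at 0.88, Fshr at 0.85, Gata1 at 0.72 and Inha at 0.53. Without WT testis 2 these 4 genes were at 0.71, 0.76, 0.52 and 0.72. Inha lay at 2.01 and 2.20 log2 units above the list mean in WT and at 2.73 and 2.73 in cKO, and Clu at 3.53 and 3.54 in WT and 4.17 and 4.24 in cKO.

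**Figure D3:**
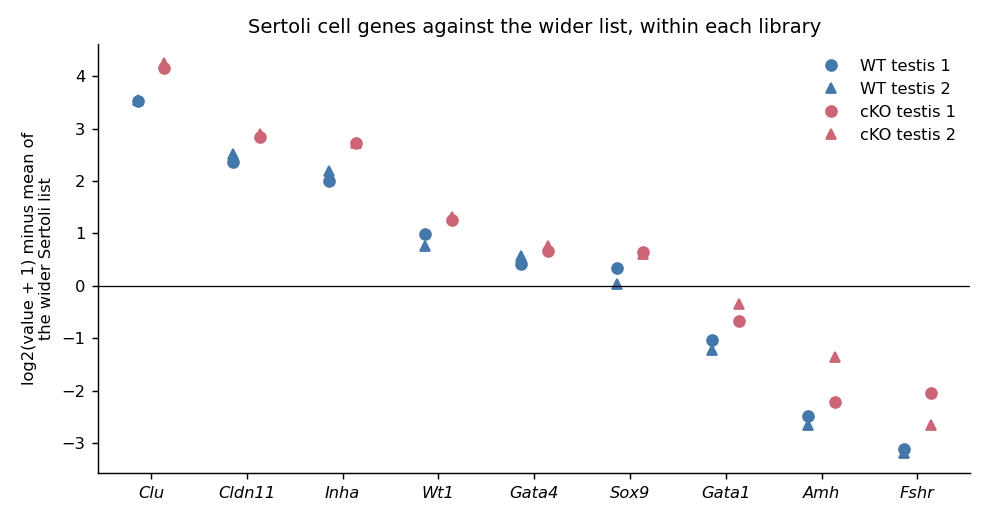
log2(value + 1) of each Sertoli cell gene minus the mean of the 39 wider list genes in the same library, for WT (blue) and cKO (red) testis, circles for replicate 1 and triangles for replicate 2. The mean change from WT to cKO is smallest for Gata4, at 0.21, and largest for Amh and Fshr, at 0.79 and 0.81. On this scale limma called 0.866% of all genes higher and 66.9% lower, and the position of the 9 genes depends on the list used as reference.

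In summed level the Leydig and macrophage lists also rose in cKO, the peritubular myoid list rose less and the endothelial list stayed near level. The part of these cell types in the results was not tested. Of 8 Leydig cell genes 7 rose, and their summed level went from 405 and 294 in WT to 1268 and 699 in cKO. The steroid synthesis genes Hsd3b1 and Cyp17a1 rose by 1.86 and 1.25 in log2 fold change, and without cKO testis 1 Cyp17a1 was at 0.81 (limma adjusted p 0.00103). Of 7 tested macrophage genes 4 rose, among them Csf1r at 0.72 and Mrc1 at 0.78 (0.55 without cKO testis 1, limma adjusted p 0.193), with summed levels over 8 genes of 75.7 and 66.9 in WT and 151 and 108 in cKO. Cx3cr1, a chemokine receptor gene of macrophages named after its values were seen, was at 6.51 and 6.12 in WT and 5.85 and 1.27 in cKO, and was not called (log2 fold change -0.89, limma adjusted p 0.134). Among 7 peritubular myoid genes 3 rose and 1 fell. Mylk rose by 0.72, and Actg2 fell by 0.61. The summed level of endothelial genes stayed between 18.7 and 20.9 in all 4 libraries, and of 5 tested genes 1 was called higher and 1 lower. Cdh5, a cadherin of vessel walls, was higher (log2 fold change 1.00, limma adjusted p 0.031), a call lost in limma without WT testis 2 (0.76, adjusted p 0.138), without cKO testis 1 (1.01, adjusted p 0.128) and without cKO testis 2 (0.99, adjusted p 0.114). Tek, an angiopoietin receptor named after its values were seen, was lower (6.16 and 5.18 in WT, 1.81 and 3.05 in cKO, log2 fold change -0.98, limma adjusted p 0.0382). Egfl7 lay at -0.33 (limma adjusted p 0.443). It was at -0.63 without WT testis 1 and at -0.02 without WT testis 2.

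Genes of late germ cells were lower. Of 7 round spermatid genes 6 fell, including Tssk1 at -0.54 and the acrosomal protease gene Acr at -0.39. Of 8 elongating spermatid genes 7 fell, including Tnp2 at -0.51. With quantile normalization Tssk1 lay at -0.11 and Acr at -0.11 (limma adjusted p 0.475 and 0.452), and Tnp2 at -0.36 (limma adjusted p 0.093). With library-total scaling Tssk1 lay at -0.36 and was called (limma adjusted p 0.0283), while Acr at -0.21 and Tnp2 at -0.32 were not (limma adjusted p 0.179 and 0.0645). Without cKO testis 1 limma called none of these 3, at log2 fold changes of -0.45 for Tssk1, -0.32 for Acr and -0.50 for Tnp2 (adjusted p 0.12, 0.239 and 0.404). Without cKO testis 2 limma did not call Acr at -0.47 or Tnp2 at -0.51 (adjusted p 0.0502 and 0.357). The elongating spermatid gene that limma did not call, Prm2, lay at -0.42 (limma adjusted p 0.051), and on recovered reads it was called lower at -0.42 by edgeR (adjusted p 0.0282) and at -0.45 by DESeq2 (adjusted p 0.000654). The summed level of the 8 elongating spermatid genes was 24212 and 27088 in WT and 17290 and 17970 in cKO. Spermatocyte genes summed to 623 and 630 in WT and 573 and 658 in cKO, with 2 of 9 called, both higher. Sycp2 and Piwil1 lay at log2 fold changes of 0.13 and -0.15. Piwil1 was at -0.05 without cKO testis 1 and at -0.24 without cKO testis 2. Among 8 spermatogonial genes 2 were called higher, and Dmrtb1 lay at -0.19 (-0.11 without cKO testis 1 and -0.28 without cKO testis 2). Uchl1, 1 of the 2, was at 0.62, and its call was lost in limma without WT testis 2 (0.46, adjusted p 0.102), without cKO testis 1 (0.63, adjusted p 0.0639) and without cKO testis 2 (0.61, adjusted p 0.0619). Both counts stand beside the 16.1% of all genes called higher. Kit, entered as a mast cell marker but also a gene of differentiating spermatogonia and Leydig cells, rose by 1.08. The other 4 mast cell genes and the epididymal list were not analysed here.

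**Figure D4:**
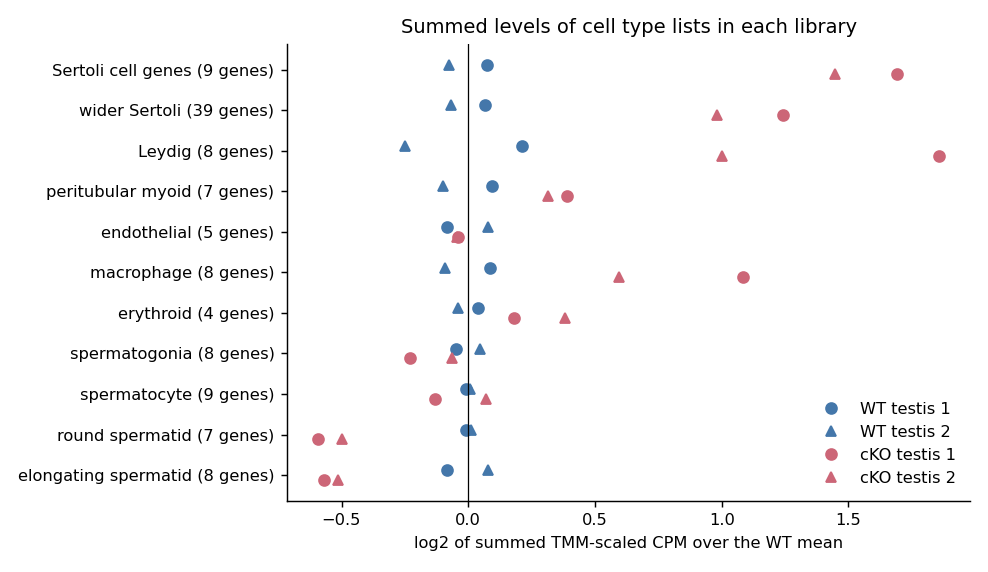
Summed TMM-scaled CPM of each cell type list in each library, as the log2 ratio to the mean of the 2 WT libraries, for WT (blue) and cKO (red), circles for replicate 1 and triangles for replicate 2. The Sertoli cell genes lie at 1.69 and 1.45 in cKO, the Leydig list at 1.86 and 1.00, and both spermatid lists between -0.59 and -0.50.

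The cKO libraries differed from each other in Sertoli and Leydig genes. cKO testis 1 was above cKO testis 2 in 7 of the 9 Sertoli cell genes, in 34 of 39 wider list genes, in 8 of 8 Leydig genes and in 7 of 7 macrophage genes, but in 3 of 7 peritubular myoid and 2 of 5 endothelial genes. Over all genes tested it was above in 11298 of 20658. For Sox9, Wt1, Gata4, Inha, Cldn11 and Clu the ratio of cKO testis 1 to cKO testis 2 lay between 1.17 and 1.27. It was 2.08 for Fshr, 0.977 for Gata1 and 0.658 for Amh. In each of the 9 genes the smallest ratio of any cKO to any WT library was at least 2.05, the lowest being that of Sox9.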

How the data were processed

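RNA-seq of 4 whole-testis libraries was used. Per the submitters' processing notes, Bowtie2 2.3.4.3, SAMtools 1.9, HTSeq 0.11.2, edgeR 3.26.8 and the mm10 build were involved; their settings, the strand option and the annotation are not given in the sources used here. By the authors' name for the table, the deposited values are a TMM-scaled signal. Each column was whole multiples of 1 step (100% of values within 0.01 of a whole read), so counts of reads were recovered for edgeR 4.0.16 and DESeq2 1.42.0 as alternatives. The authors also deposited log2 fold changes and p-values with FDR, whose test is not stated. In every gene of the table at least 2 libraries reached 0.975, so scarcer genes are not analysed here.

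The main test was limma 3.58.1 (R 4.3.3, variance trend) on log2(value + 1), with genes of mean at least 1, and all 9 members passed. The relative fits subtracted, per library, the mean of a reference list. The members, the wider and cell type lists and the rule for named genes (all members, then in each role of the wider list the 2 highest and up to 2 largest called changes, and the 2 highest of every other list) were chosen with earlier results of these data known. Counts over the wider list include 1 gene that is not reported here by name or drawn. Fits were tested on simulated data. Exon lengths are unions of GENCODE M21 exons. Libraries of a group differed by more than counting error (chi-square per gene 7.56 for WT and 4.97 for cKO).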

Additional observations from a re-analysis of the deposited data

How the results depend on the processing

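The 9 Sertoli cell genes were called higher under each alternative, except that Fshr was lost without cKO testis 1 and fell below the filter at a mean of at least 5, which left 8 called in each case. Over all genes the count of called genes was 6016, from 3148 to 6085 when each library was left out in turn, and 2135 without the variance trend. DESeq2 called 4351 genes and edgeR 5904. Of 20658 genes, limma called 3316 higher in the main fit and 3242 with a pseudocount of 0.1. It called 3107 higher with median-ratio scaling, 2472 with quantile normalization and 1660 without the variance trend. Without the filter 3290 of 21275 were called higher, and at a mean of at least 5, 2954 of 14432. Without the variance trend Tex10 was not called (limma adjusted p 0.0782 at -1.02), and the highest limma adjusted p of the 9 genes was 0.0403, for Fshr. The numbers 1 and 2 were not shown to pair the libraries: the correlation of same-numbered deviations was 0.116 over only 2 pairs. With the replicate block 7185 genes were called, 3877 of them higher. All 9 Sertoli cell genes were called higher, and the Tex10 change was -1.02. Relative to the wider list with that block, 8 of the 9 were called higher. Of all genes 15220 were called there, 355 (1.72%) higher and 14865 lower. Where a library was left out, the lone library of its group was assumed to vary like the other group.

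The calls relative to the wider list, 5 of 9 genes, were the least stable. They numbered 2 with a pseudocount of 0.1, 3 at a mean of at least 5, 3 without the variance trend, 8 against the median of the list, 0 without junction and cytoskeleton genes, 0 against the other 8 members and from 0 to 2 when each library was left out. The 2 called with a pseudocount of 0.1 were Fshr at 1.28 and Amh at 1.05 (limma adjusted p 0.0155 and 0.0152), against 0.81 and 0.79 in the main fit. Inha, Clu and Gata1 lay at 0.57, 0.61 and 0.66 with that pseudocount and were not called. Fshr was not tested at a mean of at least 5. Of all genes, 1.1% were called higher with a pseudocount of 0.1 and 1% at a mean of at least 5. Without the variance trend 0.871% of all genes were called higher. The cause of these changes in count was not tested. Against the other 8 members the sign turned for Sox9 (-0.13), Wt1 (-0.16), Gata4 (-0.39) and Cldn11 (-0.14), by construction of that reference for genes under the mean of the rest. Among other named genes that were not called, the sign turned for Alas2 (-0.038 with quantile normalization), Dmrtb1 (0.27), Piwil1 (0.19) and Prm2 (0.031) under that same normalization, and for Piwil1 (0.042) with library-total scaling. It also turned when a library was left out: Alas2 ranged from -0.11 to 0.45, Hbb-bs from -0.40 to 1.05, Krt8 from -0.18 to 0.67 and Sycp2 from -0.0089 to 0.26. Of the called genes outside the 9, Acr kept its call in 9 of 14 alternatives, Tnp2 in 9, Tssk1 in 11, Uchl1 in 8, Mrc1 in 11 and Cldn3 in 10. Cdh5 kept it in 8 of 13. Without the variance trend the calls of Vim, Cxcl12, Csf1r, Cyp17a1, Mylk and Actg2 were lost at unchanged fold changes (limma adjusted p 0.0507 to 0.067), and each kept its call in 13 of 14. Prm2, not called, was called lower in edgeR, in DESeq2, with a pseudocount of 0.1, at a mean of at least 5, with the replicate block and without either WT library. Depth limits Fshr and Amh, whose WT values rest on 7 to 17 reads.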
